A study of Mus musculus with 1016 samples.

Results

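In the 1-cell mouse embryo the genomes of egg and sperm lie apart in a maternal and a paternal pronucleus, and single-cell Repli-seq of isolated pronuclei gives the replication state of each parental genome on its own. The pronuclei described here are all columns of replication states deposited for maternal and for paternal pronuclei with a replication score, the percent of called bins that had replicated, of 10 to 90. They number 21 maternal and 17 paternal pronuclei, 38 of the 44 pronuclei with states (25 maternal, 19 paternal) and of the 1016 samples of the series, in which 94 pronuclei are labelled (46 maternal, 48 paternal); a labelled pronucleus without a column was not analysed here. Zygotes were recovered from superovulated F1 females under 10 weeks of age, crossed with DBA/2J males, were cultured in KSOM and received no further treatment. Maternal pronuclei come from eggs of (C57BL/6J x CBA)F1 females and paternal pronuclei from sperm of DBA/2J males. Parent of origin and strain can therefore not be told apart. Both kinds were collected 21 to 25 h after hCG. One pronucleus was lifted out by micromanipulation, told apart by its size and its place relative to the second polar body, and the rest of the zygote with the other pronucleus was processed too. The labels do not say which maternal and which paternal pronucleus shared a zygote, nor from which female each came. By the study's methods, pronuclei whose allelic reads contradicted their parent were exchanged. Whether the column names date from before or after that step is not given, and the binary states hold no alleles to check it.

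After fertilization the sperm genome exchanges its protamines for histones supplied by the egg and loses much of its DNA methylation, whereas the egg genome arrives packed in histones with its own modifications. Both pronuclei then pass through S phase before the first division. Replication timing (RT) is the order in which stretches of a genome are copied within S phase. In differentiated cells, gene-rich and transcribed domains usually replicate early and gene-poor domains at the nuclear lamina late. Asynchronous replication of the parental copies has been described for imprinted domains. The paper saw none at imprinted genes and refers to like findings in ES cells.

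Maternal and paternal pronuclei within the chosen range of scores spanned much of S phase. Replication scores of maternal pronuclei ran from 25.4% to 87.99% with a median of 54.9% and a mean of 59.99 ± 17.4% (SD, n = 21). Those of paternal pronuclei ran from 15.7% to 85.3% with a median of 63.1% and a mean of 58.3 ± 17.7% (SD, n = 17). The ranges overlapped almost entirely. The difference of the means, 1.72 percentage points, is a description only, because the score chose these pronuclei and set aside 4 maternal and 2 paternal ones. Over all 44 pronuclei with states it was 7.96 points and did not pass (p = 0.222, two-sided permutation of the parental labels, 100000 draws, as for the other tests of single values). The score does not tell when each pronucleus entered S phase, since all carry the same span of collection hours.

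Of 49264 bins of 50 kb on chromosomes 1 to 19 (GRCm38), 46485 were called in most maternal and 46463 in most paternal pronuclei. Whole chromosomes lacked calls in 5 pronuclei, namely chromosome 19 in maternal pronuclei 19 and 35, chromosome 2 in maternal pronucleus 40, chromosome 12 in paternal pronucleus 40 and chromosome 7 in paternal pronucleus 45. Maternal pronucleus 28 stood apart from all others. Each of its 19 chromosomes was in a single state, 9 fully replicated and 10 not replicated at all, with 0 changes of state along any chromosome and a score of 45.5%. In no other pronucleus was more than 1 chromosome in a single state. Results that rest on the groups are therefore also given without it where it moves them.

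Changes of state along the chromosomes, a measure of how finely the replicated stretches were broken up, were counted in each pronucleus. Maternal pronuclei showed 0 to 32.2 switches per 1000 called bins (median 23.1, mean 21.248 ± 9.21) and paternal pronuclei 10.1 to 30.8 (median 18.4, mean 20.2 ± 5.57). The difference of 1.02 switches (95% interval −3.90 to 5.93) was within the spread (p = 0.692), and without maternal pronucleus 28 it was 2.08 (p = 0.369). The highest counts in both groups came from pronuclei with scores near the middle of S phase (maternal pronucleus 19 at a score of 50.8% and paternal pronucleus 41 at 50.001%).

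**Figure D1:**
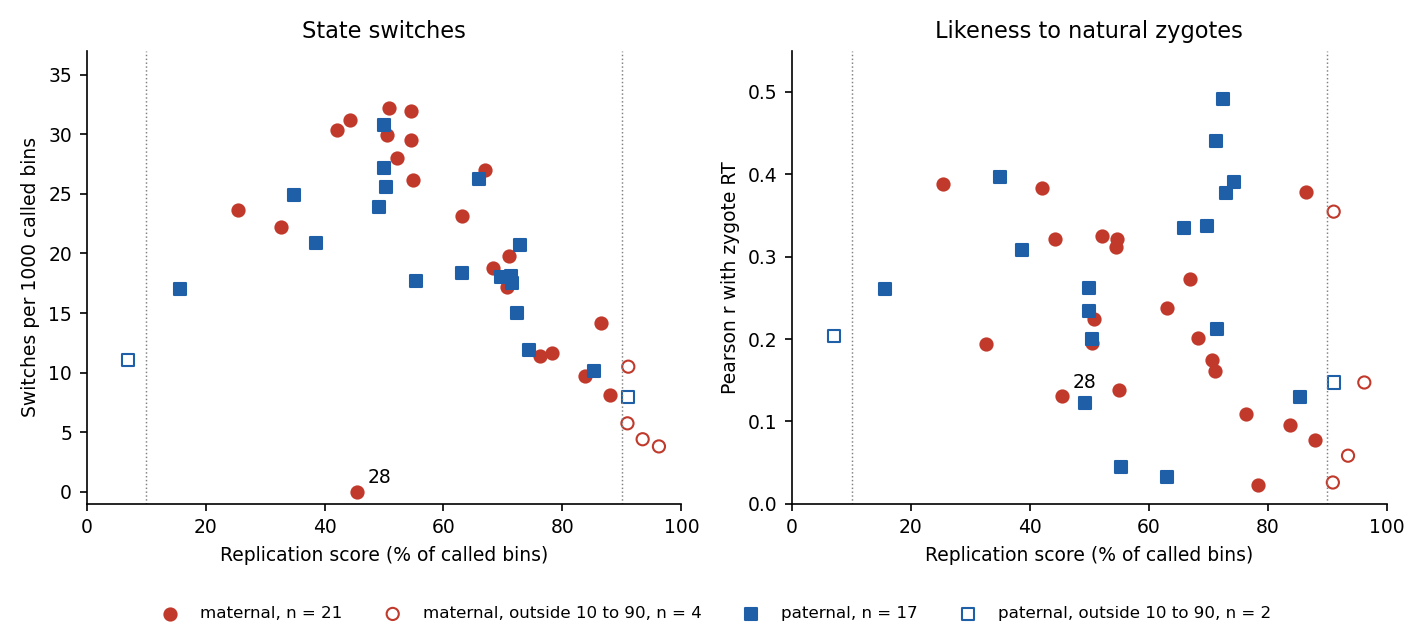
Each point is a pronucleus, with the replication score in percent of called bins on both x axes, against changes of state per 1000 called bins (left) and Pearson's r of its states with zygote RT over 50 kb bins (right). Filled symbols are the 21 maternal and 17 paternal pronuclei analysed, open symbols the 6 outside scores of 10 to 90 (dotted lines), and maternal pronucleus 28 is the only one with 0 switches.

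Single pronuclei resembled each other weakly, and those of the same parent hardly more than those of different parents. Over all 703 pairs of pronuclei, Pearson's r between their states across bins ran from −0.0800 to 0.350. The mean r was 0.0721 between maternal pronuclei, 0.0894 between paternal pronuclei and 0.0782 between a maternal and a paternal pronucleus. The excess of likeness within the groups over that between them was 0.00254 (p = 0.190, one-sided permutation), and 0.00397 without maternal pronucleus 28 (p = 0.121). Maternal pronuclei were no more alike among themselves than paternal ones beyond the spread (difference −0.0172, p = 0.392, two-sided). This comparison was added after the data were seen.

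The profiles summed over each group shared most of their shape. RT of a bin was taken as the mean, over 16 overlapping intervals of replication score 35 points wide, of the share of pronuclei with the bin replicated, so that 1 is earliest and 0 latest. Over 1200 windows of 2 Mb, maternal and paternal RT had a Spearman correlation of 0.628 (Pearson's r 0.654), and over 46381 bins of 50 kb a Spearman correlation of 0.553, given as descriptions because windows and bins are not independent replicates. Maternal RT of a window ran from 0.0642 to 0.909 (median 0.527) and paternal RT from 0.0187 to 0.932 (median 0.525). Both were early (RT of 0.5 or more) in 44.7% of windows and both late in 30.9%, while 13.3% were early in maternal and late in paternal pronuclei and 11.1% the reverse. RT lay within 0.2 of each other in 90.9% of windows and in 78.2% of bins of 50 kb. Intermediate RT, 0.4 to 0.8, was found in 81.7% of windows in maternal and 76.3% in paternal pronuclei.

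The likeness of both group profiles lay inside the central range given by permuted parental labels. With the share of called bins replicated taken relative to the score of each pronucleus, the group profiles over windows had a Pearson's r of 0.689, where permuted labels gave a median of 0.698 and a central range of 0.623 to 0.737 (p = 0.361, one-sided for a lower r). The SD over windows of the maternal minus paternal difference was 10.8 points, against a median of 10.52 points for permuted labels (p = 0.318, one-sided for a larger SD). Without maternal pronucleus 28 it was 11 against 10.4 points (p = 0.170). Single bins of 50 kb gave an SD of 14.6 points (p = 0.328).

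Windows with the earliest and the latest mean RT over both groups are given as examples, picked after the values were seen. Early or late RT in both groups follows largely from that choice and is not a result. The earliest was a window of chromosome 19 (36000001 to 38000000) that holds Hhex, a homeobox gene of endoderm and blood progenitors, Kif11, a mitotic kinesin, and Ide, which encodes the insulin-degrading enzyme. More than 50% of its bins had replicated in 18 of 19 maternal and 15 of 17 paternal pronuclei, with RT of 0.909 and 0.841. Next came a window of chromosome 12 (54000001 to 56000000) with Baz1a, a chromatin remodelling subunit, and Nfkbia, an inhibitor of NF-κB, at RT of 0.808 and 0.886. A window of chromosome 6 (38000001 to 40000000) with the kinase gene Braf was at 0.857 and 0.807. At the late end, a window of chromosome 7 (22000001 to 24000000) filled with Vmn1r pheromone receptor genes had RT of 0.0694 and 0.0187, and more than 50% of its bins had replicated in 2 of 21 maternal and 0 of 16 paternal pronuclei. Another of chromosome 7 (32000001 to 34000000), which holds secretoglobin genes of the Scgb1b and Scgb2b families, had RT of 0.0642 and 0.0561. The end of chromosome 10 (130000001 to 130700000), with Olfr and Vmn2r receptor genes, had RT of 0.0731 and 0.0625. A window of chromosome 12 (114000001 to 116000000) without an annotated protein-coding gene had RT of 0.113 and 0.0603. Genes annotated as other types were not counted in windows, so that window need not be without genes. The 4 late windows were rich in repeats, at 46.1% to 61.2% of bases against 29.5% to 33.97% in the 3 early ones.

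No window of 2 Mb passed the test of a difference between maternal and paternal pronuclei. Of 1200 windows tested on the share relative to the score, 0 passed an adjusted p of 0.05 (Benjamini-Hochberg over all windows, smallest 0.871), which is 0% of windows, and 56, or 4.67%, had an unadjusted p below 0.05, of which 34 had the higher share in maternal and 22 in paternal pronuclei. On the share itself, without taking off the score, 0 passed and 41 (3.42%) had an unadjusted p below 0.05. limma on the same values passed 0 windows, with 62 below an unadjusted 0.05 on the relative share. Among 46381 single bins, 0 passed and 2271 (4.90%) were below an unadjusted 0.05. The precision behind these counts is limited by the number of pronuclei. The 95% interval of the difference in a window reached a median of 20.3 points to either side (13.3 to 28.8). The authors scaled each bin by its mean over the stage, and whether both kinds of pronuclei were scaled together is not given. With each kind scaled alone, bin differences common to 1 parent would be taken out before these tests. Differences of 20 points or more in either direction were seen in 72 windows (6.00%), and the largest, 38.7 points, stood against a median of 36.2 points for the largest in permuted labellings (p = 0.271, one-sided).

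**Figure D2:**
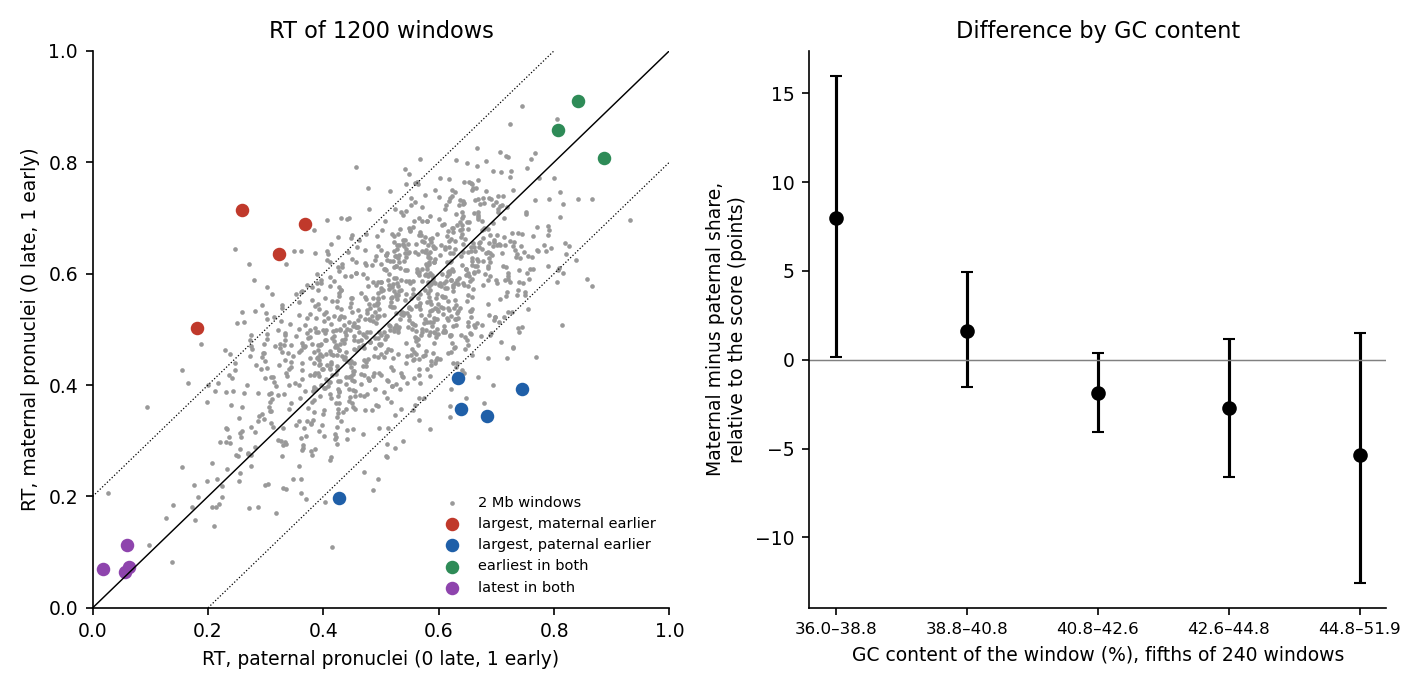
Left, RT of each of 1200 windows of 2 Mb in paternal (x) and maternal (y) pronuclei, 0 late and 1 early, with the line of equality and dotted lines 0.2 apart from it; coloured points are the windows named in the text. Right, mean maternal minus paternal share of bins replicated, in points relative to the score, for 5 groups of 240 windows ordered by GC content, with 95% intervals, from 7.97 in the group with the least GC to −5.37 in that with the most.

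Of the windows with the largest differences towards the maternal pronuclei, 4 are given as values, since none passed. On chromosome 15 (2000001 to 4000000), a window with Ghr, the growth hormone receptor gene, and Selenop, a selenium transport protein gene, had 75.4 ± 38.7% of bins replicated in maternal pronuclei (lowest 0%, median 100%, highest 100%, n = 21) and 34.9 ± 42.8% in paternal pronuclei (lowest 0%, median 0%, highest 100%, n = 17). More than 50% of its bins had replicated in 15 of 21 maternal and 6 of 17 paternal pronuclei, and both groups covered the whole range. The difference relative to the score was 38.7 points (95% interval 14.8 to 61.7, p = 0.00337, adjusted p = 0.871 by permutation). A window of chromosome 12 (36000001 to 38000000) with Meox2, a homeobox gene of mesoderm, and Dgkb, a diacylglycerol kinase gene, had 78.8 ± 29.4% in maternal and 42.8 ± 40.03% in paternal pronuclei, a relative difference of 34.8 points. Relative differences of 30.9 points were found on chromosome 18 (86000001 to 88000000) with Neto1 and Cbln2, genes of synaptic proteins, and of 30.6 points on chromosome 8 (126000001 to 128000000) with the cell polarity gene Pard3.

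Towards the paternal pronuclei, the largest window lay on chromosome 12 (110000001 to 112000000), at the distal end of the imprinted Dlk1-Dio3 domain. It holds Dio3, the thyroid hormone inactivating deiodinase, Hsp90aa1, a heat-shock chaperone gene, and Dync1h1, the dynein heavy chain gene. Its bins had replicated to 46.5 ± 44.99% in maternal pronuclei (lowest 0%, median 52.5%, highest 100%, n = 21) and to 78.3 ± 22.1% in paternal pronuclei (lowest 35%, median 82.5%, highest 100%, n = 16). No paternal pronucleus was below 35%, whereas maternal pronuclei ran from 0% to 100%. The relative difference was −32.9 points (95% interval −53.8 to −11.4, p = 0.00587, adjusted p = 0.871 by permutation). The others were a window of chromosome 1 (2000001 to 4000000) with Xkr4 and Rp1 at −29.8 points, one of chromosome 5 (114000001 to 116000000) with Ung, a uracil repair enzyme gene, and Trpv4 at −29.5 points, one of chromosome 18 (32000001 to 34000000) with Map3k2, Bin1 and Ercc3 at −29.3 points, and one of chromosome 8 (94000001 to 96000000) with the metallothionein genes Mt1 and Mt2 and the chemokine gene Cx3cl1 at −28.5 points. In these 9 windows each group held pronuclei with all bins replicated, and in all but 2 of them each group also held pronuclei with none replicated. Leaving out maternal pronucleus 28 gave relative differences of 27.8 to 38.1 points in the first 4 and of −32.8 to −27.0 points in the others.

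**Figure D3:**
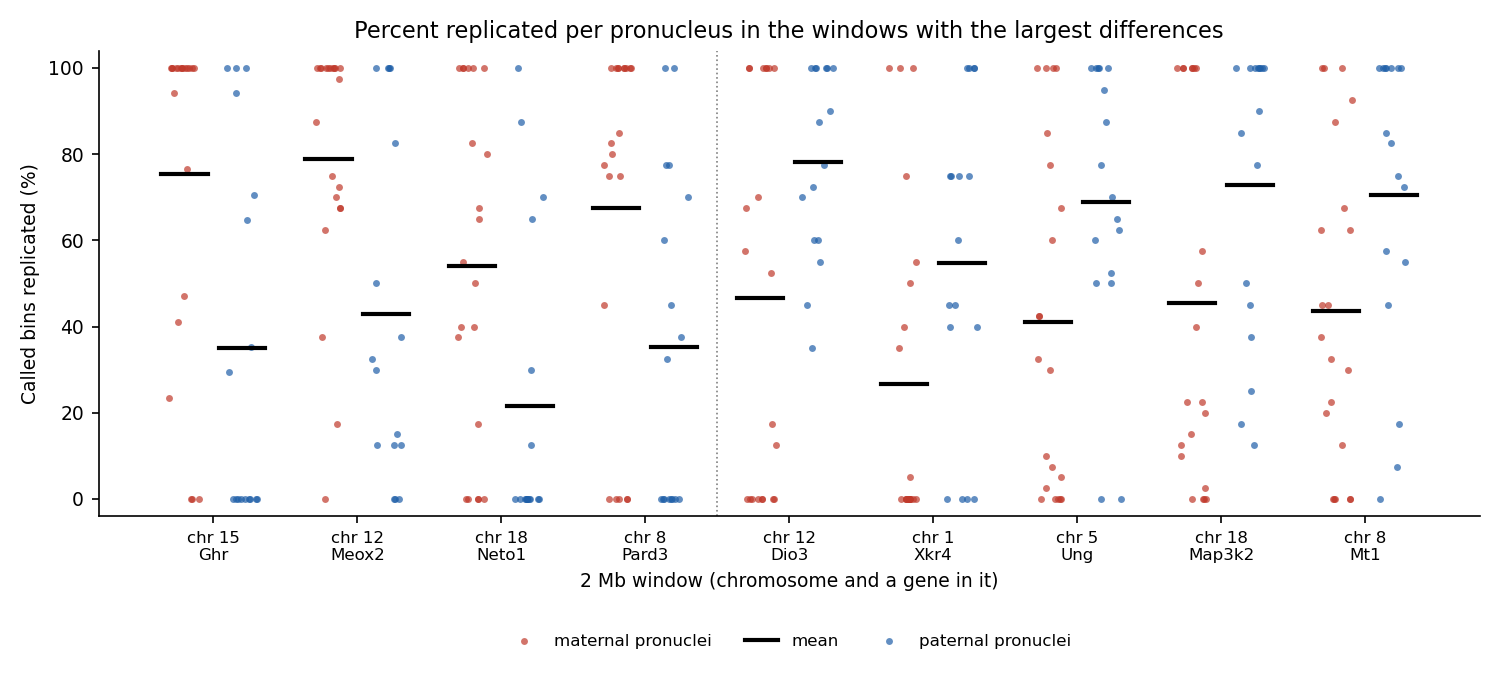
Percent of called bins replicated (y, 0 to 100) in each maternal (red) and paternal (blue) pronucleus, for the 9 windows described in the text, 4 with the higher mean share in maternal and 5 in paternal pronuclei, named on the x axis by chromosome and 1 gene; black bars are group means. Points of both groups overlap in every window, and many pronuclei lie at 0% or 100%.

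GC content went with paternal RT and hardly with maternal RT across windows, a contrast that did not pass the test over pronuclei. Across the 1200 windows, Pearson's r of RT with GC content was 0.371 in paternal and 0.0209 in maternal pronuclei, and r of the difference with GC content was −0.405, as a description over windows that share libraries and neighbours. The windows with the least GC (35.97% to 38.8%) had replicated to 54.6 ± 22.8% in maternal and 44.9 ± 22.998% in paternal pronuclei, a relative difference of 7.97 points (95% interval 0.157 to 16.0, p = 0.0588, adjusted over the 5 groups of windows 0.232, permutation). The windows with the most GC (44.8% to 51.9%) had replicated to 54.1 ± 18.1% and 57.7 ± 20.3%, a relative difference of −5.37 points (p = 0.153, adjusted p = 0.232 by permutation). Per pronucleus, r of the states with GC content over bins ran from −0.235 to 0.313 (median −0.0251) in maternal pronuclei, and from −0.119 to 0.502 (median 0.0181) in paternal pronuclei. The difference of the means, −0.0907 (95% interval −0.198 to 0.0139), did not pass (p = 0.108, permutation), and was −0.0940 without maternal pronucleus 28 (p = 0.105, permutation). The highest 4 values of all 38 belonged to paternal pronuclei 5, 17, 27 and 50, at 0.379 to 0.502, while the other 13 paternal pronuclei overlapped the maternal ones. With a line on GC content taken off each pronucleus, the SD over windows was 9.86 points against a permuted median of 10.3 (p = 0.878, one-sided). The comparisons with GC content were added after the data were seen.

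Repeat-rich windows were later in both groups. Pearson's r of RT with the repeat share of a window was −0.427 in maternal and −0.562 in paternal pronuclei. Pearson's r of RT with the number of protein-coding genes was −0.187 in maternal and 0.0302 in paternal pronuclei (Spearman correlations −0.00348 and 0.243), again as descriptions across windows.

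No chromosome passed the test of a difference between the parental genomes. Relative to the score, maternal minus paternal differences ran from −4.32 points on chromosome 14 to 6.91 points on chromosome 19, with 0 of 19 passing (smallest adjusted p = 0.983 by permutation) and 0 below an unadjusted 0.05. The 95% intervals reached 6.28 to 10.3 points to either side, with a median of 7.56. Chromosome 19 was the most advanced of all in both groups, 13.4 ± 13.7 points above the score in maternal pronuclei (SD, n = 19) and 6.51 ± 18.3 points in paternal pronuclei (SD, n = 17). Chromosome 7 was lowest in both, at −7.85 ± 15.01 points (SD, n = 21) and −4.65 ± 7.69 points (SD, n = 16). Chromosome means of both groups lay on the same side of the score for 16 of 19 chromosomes and had a Pearson's r of 0.851, which fell to 13 chromosomes and 0.735 without maternal pronucleus 28, whose 19 single-state chromosomes enter each value as 0 or 100%. Without it, differences ran from −4.68 points on chromosome 4 to 4.62 points on chromosome 19 and 0 passed (smallest adjusted p = 0.827 by permutation).

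**Figure D4:**
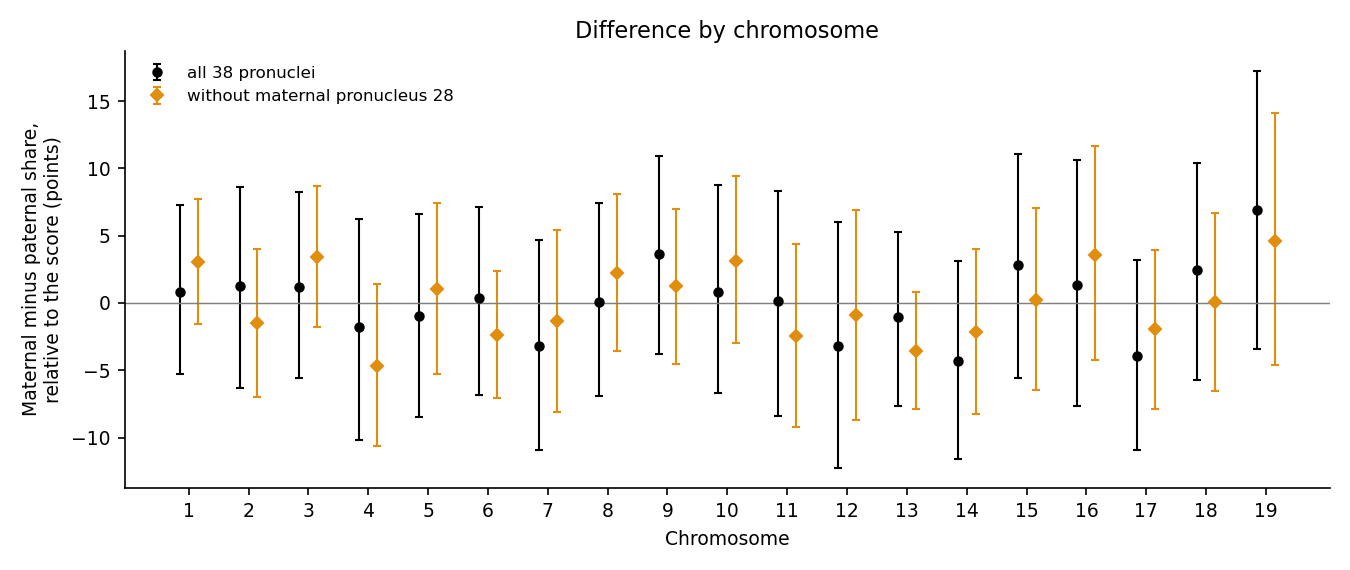
Maternal minus paternal share of called bins replicated, in points relative to the score of each pronucleus (y), for chromosomes 1 to 19 (x), over all 38 pronuclei (black) and without maternal pronucleus 28 (orange); bars are 95% intervals. All 38 intervals include 0, and chromosome 19 has the highest value, 6.91 points.

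The distal ends of chromosomes were below the score in both groups. Mouse chromosomes have the centromere at one end, and the first 10 Mb next to it lay near the score, at 0.142 ± 6.28 points in maternal and 0.906 ± 6.00 points in paternal pronuclei. The last 5 Mb towards the other telomere were at −7.68 ± 7.97 points in maternal pronuclei (below the score in 17 of 21) and at −11.1 ± 11.2 points in paternal pronuclei (below it in 13 of 17). The groups overlapped at both ends, with differences of −0.764 points (95% interval −4.60 to 3.14, adjusted p = 0.708) near the centromere and 3.41 points (95% interval −2.58 to 9.37, adjusted p = 0.563 by permutation, over both ends) at the telomere.

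In both kinds of pronuclei, more of the bins that are early in intact zygotes had replicated than of the late ones, though by little in some pronuclei. Bins were classed as early or late by RT in 66 naturally fertilized zygotes with scores of 10 to 90. The share replicated was higher in early than in late bins in 21 of 21 maternal pronuclei, by 0.652 to 32.7 points (median 15.2, mean 16.6 ± 9.68), and in 17 of 17 paternal pronuclei, by 1.62 to 40.5 points (median 20.7, mean 20.6 ± 11.5). The difference between the groups, −3.98 points (95% interval −10.6 to 2.60), was within their spread (p = 0.253, permutation), and −3.68 points without maternal pronucleus 28 (p = 0.300, permutation). Over 5 groups of 240 windows ordered by zygote RT, the share replicated went from 45.8 ± 22.1% in the latest to 70.3 ± 13.3% in the earliest group in maternal pronuclei, and from 40.4 ± 18.6% to 69.9 ± 18.6% in paternal pronuclei. Differences relative to the score lay between −2.38 and 3.70 points, and the middle group, at −2.38 points, had an unadjusted p = 0.0285 and an adjusted p = 0.142 (permutation, over the 5 groups).

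Likeness to zygotes, to zygotes from in vitro fertilization (IVF) and to parthenotes, which are activated eggs with a maternal genome only, was measured as Pearson's r of the states of a pronucleus with the RT of the reference over bins. With natural zygotes, r ran from 0.0222 to 0.389 in maternal (median 0.201, mean 0.222 ± 0.108) and from 0.0321 to 0.492 in paternal pronuclei (median 0.262, mean 0.269 ± 0.134). With 57 IVF zygotes the means were 0.251 ± 0.0933 and 0.250 ± 0.0977, and with 57 parthenotes 0.237 ± 0.0990 and 0.221 ± 0.0822. Of the group profiles over 1200 windows, maternal RT had Spearman correlations of 0.686, 0.756 and 0.674 with natural zygotes, IVF zygotes and parthenotes, and paternal RT of 0.728, 0.629 and 0.545, given as descriptions. All 38 values per pronucleus were above 0 for each of the 3 references, and the groups overlapped for each. Maternal minus paternal differences were −0.0470 (95% interval −0.122 to 0.0284), 0.00105 (−0.0586 to 0.0611) and 0.0156 (−0.0420 to 0.0734), with adjusted p of 0.477, 0.973 and 0.805 by permutation. Maternal pronuclei lost less likeness from IVF zygotes to parthenotes, −0.0149 ± 0.0228 against −0.0295 ± 0.0308 in paternal pronuclei, but this difference, 0.0146 (95% interval −0.00215 to 0.0313), did not pass (p = 0.102, adjusted over the 4 comparisons 0.409, permutation). Without maternal pronucleus 28 the 4 differences were −0.0424, 0.0104, 0.0262 and 0.0158 in the same order. Parthenotes come from eggs of (C57BL/6J x CBA)F1 females, as the maternal pronuclei do.

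Variability between pronuclei of a group was compared bin by bin. The variability score of a bin is 1 where 50% of the pronuclei have replicated it and 0 where all or none have. Its mean over 46381 bins was 0.720 in maternal and 0.702 in paternal pronuclei. The difference over every 5th bin, 0.0178, lay inside the range of permuted labels (−0.0483 to 0.0790, p = 0.908, two-sided), which is not centred on 0 because the groups differ in size. Without maternal pronucleus 28 the difference was 0.00478 (p = 0.864, permutation).

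Gene by gene, RT was read from the bins that a gene overlaps, so neighbouring genes in a bin share their value. Of 19911 genes tested as regions on the share relative to the score, 0 passed (smallest adjusted p = 0.991 by permutation) and 899, or 4.52%, were below an unadjusted 0.05. Counted without a test, RT was higher by 0.2 or more in maternal pronuclei for 1376 of 19900 protein-coding genes (6.91%) and in paternal pronuclei for 2608 (13.1%); such genes are called maternal-high and paternal-high here. From the raw share of pronuclei, without intervals of the score, the same threshold gave 1254 and 1644. The size of the paternal excess thus depends on the intervals. Over the 46381 bins, RT was higher by 0.2 or more in maternal pronuclei in 12.1% and in paternal pronuclei in 9.76%. The paternal excess was thus seen over genes and not over bins. With a line on GC content taken off each pronucleus, the median relative difference of all protein-coding genes was 0.107 points in place of −2.56. The median RT of these genes was 0.515 in maternal and 0.552 in paternal pronuclei. The smallest unadjusted p of any gene was that of Arl2bp and Pllp, neighbours in a bin of the window of chromosome 8 with the metallothionein genes, at RT of 0.156 in maternal and 0.759 in paternal pronuclei (p = 0.00056, adjusted p = 0.991 by permutation, named after the values were seen).

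Imprinted genes, which are expressed from the copy of one parent, had shares of paternal-high members close to or below the 13.1% of all protein-coding genes. Of 39 maternally expressed genes, 0 were maternal-high and 4 (10.3%) paternal-high, with medians of 0.462 and 0.512. Of 36 paternally expressed genes, 2 (5.56%) were maternal-high and 5 (13.9%) paternal-high, with medians of 0.456 and 0.564. The differences had medians of −0.0180 and −0.0319, beside −0.0266 over all protein-coding genes. In its own analysis of imprinted genes, the paper found no asynchronous replication. In each of the 2 lists 1 gene was below an unadjusted 0.05 and 0 passed after adjustment over all genes (adjusted p of 0.991 or more by permutation).

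The Dlk1-Dio3 domain of chromosome 12 held the widest difference among imprinted genes. Dio3, expressed from the paternal copy, had replicated in 8 of 21 maternal and 14 of 16 paternal pronuclei, with RT of 0.275 and 0.843 and a relative difference of −50.6 points (95% interval −76.2 to −24.5, p = 0.00093, adjusted p = 0.991 by permutation). Mirg, a maternally expressed noncoding RNA gene of the domain, had replicated in 8 of 21 maternal and 10 of 16 paternal pronuclei (RT 0.276 and 0.571). Dlk1, a paternally expressed Notch ligand gene, and Meg3, a maternally expressed noncoding RNA gene, had the same RT, replicated in 8 of 21 maternal and 8 of 16 paternal pronuclei (RT 0.276 and 0.453). The genes of this domain named here had the higher RT in paternal pronuclei for either imprint, and none passed. Neighbouring genes can lie in the same replicated stretch, so they are not separate observations.

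The imprinted clusters of chromosome 7 gave values in both directions. H19, a maternally expressed noncoding RNA gene, was replicated in 5 of 21 maternal and 5 of 16 paternal pronuclei (RT 0.143 and 0.312). Its neighbour Igf2, a paternally expressed growth factor gene, was replicated in 6 of 21 and 6 of 16 (RT 0.186 and 0.357). Kcnq1ot1, a paternally expressed noncoding RNA gene, was replicated in 11 of 21 and 9 of 16 (RT 0.462 and 0.620), and Cdkn1c, the maternally expressed cell cycle inhibitor gene under its control, in 10 of 21 and 7 of 16 (RT 0.419 and 0.414). Snrpn, a paternally expressed splicing factor gene of the Prader-Willi and Angelman region, was replicated in 9 of 21 and 4 of 16 (RT 0.338 and 0.171), and Ube3a of the same region, a ubiquitin ligase gene expressed from the maternal copy in neurons, in 7 of 21 and 6 of 16 (RT 0.282 and 0.297). Peg3, a paternally expressed zinc finger gene, was replicated in 10 of 21 and 10 of 16 (RT 0.345 and 0.481), and Zim1 beside it, maternally expressed, in 10 of 21 and 12 of 16 (RT 0.345 and 0.590).

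On chromosome 6, the genes named here had higher RT in maternal pronuclei for either imprint, and none passed after adjustment. Peg10, a paternally expressed gene derived from a retrotransposon, was replicated in 19 of 21 maternal and 12 of 17 paternal pronuclei (RT 0.925 and 0.599, relative difference 20.6 points, 95% interval −1.44 to 42.8, p = 0.0854 by permutation). Its neighbour Sgce, the epsilon-sarcoglycan gene, also paternally expressed, had RT of 0.890 and 0.599. Ppp1r9a, a maternally expressed gene nearby, had RT of 0.916 and 0.736. Mest, a paternally expressed gene, was replicated in 19 of 21 and 13 of 17 (RT 0.835 and 0.662), and Klf14, a maternally expressed gene of that region, in 20 of 21 and 14 of 17 (RT 0.879 and 0.720).

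Imprinted genes of other chromosomes gave both close and distant values. Igf2r, a maternally expressed receptor gene, and Airn, the paternally expressed noncoding RNA gene that overlaps it, had RT of 0.535 and 0.512 and of 0.523 and 0.518. Grb10, an adaptor gene of growth factor signalling, had RT of 0.620 and 0.590, and Plagl1, a paternally expressed zinc finger gene, 0.880 and 0.733. Smoc1, listed as paternally expressed and as noncanonically imprinted, had RT of 0.540 in maternal and 0.793 in paternal pronuclei. In noncanonical imprinting, H3K27me3 on the maternal copy in place of DNA methylation keeps it silent. Among 14 such genes, 0 were maternal-high and 4 (28.6%, beside 13.1% of all protein-coding genes) paternal-high, the latter 1 from raw shares. The median difference was −0.103. Myo1a (0.277 and 0.552) and Epas1 (0.306 and 0.567) differed most towards the paternal side, and Slc38a4, an amino acid transporter gene (0.730 and 0.574), and Sall3 (0.531 and 0.492) towards the maternal side. Of the 14, 0 were below an unadjusted 0.05.

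Long neuronal genes had the widest median difference of the lists, 0.128. These are genes of neuronal adhesion and synapses with very long introns, and 11 of 32 were maternal-high and 0 paternal-high, beside 6.91% and 13.1% of all protein-coding genes. Their median RT was 0.589 in maternal and 0.459 in paternal pronuclei, and 26 of 32 had the higher RT in maternal pronuclei. Cntn4, a contactin adhesion gene, differed most (RT 0.629 and 0.277, relative difference 32.5 points, 95% interval 9.85 to 54.7, p = 0.00887, adjusted p = 0.991 by permutation), and Magi2, a synaptic scaffold gene, most in the other direction (0.467 and 0.616). Of the 32, 6 were below an unadjusted 0.05 and 0 passed after adjustment. Their median GC content of 37.8% compares with 44.9% over all protein-coding genes. With a line on GC content taken off each pronucleus, the median relative difference of the list was 9.45 points in place of 10.6, and that of all protein-coding genes 0.107 in place of −2.56.

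Receptor gene families replicated late in both genomes. Of 1124 olfactory receptor genes, 149 (13.3%, beside 6.91% of all protein-coding genes) were maternal-high and 55 (4.89%, beside 13.1%) paternal-high. Their medians were 0.284 and 0.208, and these genes lie in clusters and share bins. Olfr1249 of chromosome 2 differed most towards the maternal side (0.476 and 0.0428), replicated in 10 of 20 maternal and 1 of 17 paternal pronuclei, and Olfr523 of chromosome 7 towards the paternal side (0.110 and 0.590). Of 325 listed vomeronasal receptor genes, 226 had values. Of these 226, 8 (3.54%) were maternal-high and 6 (2.65%) paternal-high (19 and 5 from raw shares). Their medians were 0.232 and 0.179, and Vmn1r4 (0.553 and 0.273) and Vmn1r90 (0.340 and 0.715) marked the extremes. Of 325 Zfp genes, which encode zinc finger proteins, 15 (4.62%) were maternal-high and 43 (13.2%) paternal-high (10 and 23 from raw shares). Their medians were 0.362 and 0.442, and Zfp263 (0.747 and 0.263) and Zfp511 (0.176 and 0.590) lay furthest apart.

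Genes used in most cells had higher paternal medians, as all protein-coding genes did (0.515 and 0.552). Of 30 housekeeping genes, 2 were maternal-high and 7 (23.3%, beside 13.1% of all) paternal-high, with medians of 0.514 and 0.583. Tubb5, a tubulin gene, differed most (0.0840 and 0.539), replicated in 2 of 21 maternal and 8 of 17 paternal pronuclei, and Snrpd3, a spliceosome gene, most in the other direction (0.828 and 0.539). Of 27 ribosome biogenesis genes, 1 was maternal-high and 7 (25.9%) paternal-high, the latter 3 from raw shares (medians 0.575 and 0.635), with Polr1c, an RNA polymerase subunit gene, at 0.347 and 0.764 and Nop14, a nucleolar protein gene, at 0.734 and 0.515. Of 31 genes of the replication machinery, 1 was maternal-high and 4 (12.9%) paternal-high (medians 0.538 and 0.642), with Orc3, an origin recognition subunit gene, at 0.551 and 0.906, and Mcm6, a helicase subunit gene, at 0.869 and 0.601. The lists of housekeeping and ribosome biogenesis genes had median GC contents of 47.5% and 46.3%, and with the line on GC content taken off each pronucleus their median relative differences were −3.61 and −1.57 points in place of −8.64 and −7.32. The median differences in RT were −0.0937, −0.0769 and −0.0711 for the 3 lists.

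Genes of the germ line and of early development spread to both sides. Of 25 oocyte genes, 2 (8%) were maternal-high and 5 (20%) paternal-high, beside 6.91% and 13.1% of all protein-coding genes (medians 0.488 and 0.520). Oosp1, an oocyte secreted protein gene (0.596 and 0.305), and Gpr3, a receptor gene that holds meiotic arrest (0.352 and 0.657), lay at the extremes. Of 27 spermatid genes, 2 (7.41%) were maternal-high and 7 (25.9%) paternal-high, which raw shares turned to 5 and 1 (medians 0.445 and 0.584). They ran from Oaz3 (0.614 and 0.244) to Odf1, a sperm tail gene (0.357 and 0.806). Of 27 listed genes of zygotic genome activation and the 2-cell stage, only 12 had values. Of these 12, 1 (8.33%) was maternal-high and 1 (8.33%) paternal-high, or 3 and 0 from raw shares. Medians were 0.260 and 0.307, while the median of the differences was 0.0562 and 7 of 12 had the higher RT in maternal pronuclei. Nr5a2, a nuclear receptor gene, was at 0.689 and 0.463 and Hspa1b, a heat-shock gene, at 0.0773 and 0.310. Of 22 pluripotency genes, 3 (13.6%) were maternal-high and 6 (27.3%) paternal-high, or 1 and 3 from raw shares (medians 0.441 and 0.547). Pou5f1, the gene of OCT4, was replicated in 3 of 21 maternal and 8 of 17 paternal pronuclei (0.0848 and 0.515), and Tet2, a DNA demethylation enzyme gene, was at 0.672 and 0.412. Pou5f1 (35506018 to 35510772), Tubb5 (35833921 to 35838306) and Hspa1b (34956436 to 34959238) are near each other on chromosome 17. Trophectoderm genes (19 measured, 0 maternal-high and 2 paternal-high, medians 0.594 and 0.619) had Ets2 at 0.562 and 0.402 and Cdx2, a regulator of the lineage, at 0.524 and 0.842. Primitive endoderm genes (19 measured, 2 maternal-high and 2 paternal-high, medians 0.626 and 0.666) had Col4a2, a basement membrane collagen gene, at 0.676 and 0.309 and Gata4, a transcription factor gene of the lineage, at 0.528 and 0.908.

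Of 20 genes of DNA methylation and demethylation, 1 (Tet2, 5%) was maternal-high and 2 (10%) paternal-high, beside 6.91% and 13.1% of all protein-coding genes. Their medians were 0.536 and 0.574. Mbd1, a methyl-CpG binding protein gene, had RT of 0.348 and 0.679. All 39 Hox genes, which pattern the body axis from 4 clusters, were early in both genomes, with medians of 0.610 and 0.608. Gene by gene the median difference was 0.0543, with the higher RT in maternal pronuclei for 23 and in paternal pronuclei for 16. Of the 39, 0 were maternal-high and 3 (7.69%) paternal-high, or 0 and 9 from raw shares. Hoxb7 of chromosome 11 had RT of 0.583 and 0.794 and Hoxd12 of chromosome 2 had RT of 0.745 and 0.608. Of 67 replication-dependent histone genes, 5 (7.46%) were maternal-high and 0 paternal-high (medians 0.520 and 0.598), with Hist1h2ag at 0.471 and 0.264 and Hist3h2a at 0.243 and 0.372. Below an unadjusted 0.05 were 119 of 1124 olfactory receptor genes, 6 of 226 vomeronasal receptor genes, 5 of 325 Zfp genes and 3 of 30 housekeeping genes, beside 4.52% of all genes tested, and at most 2 genes in each of the other lists apart from the long neuronal genes (6 of 32). After adjustment over all genes 0 passed in any list.

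**Figure D5:**
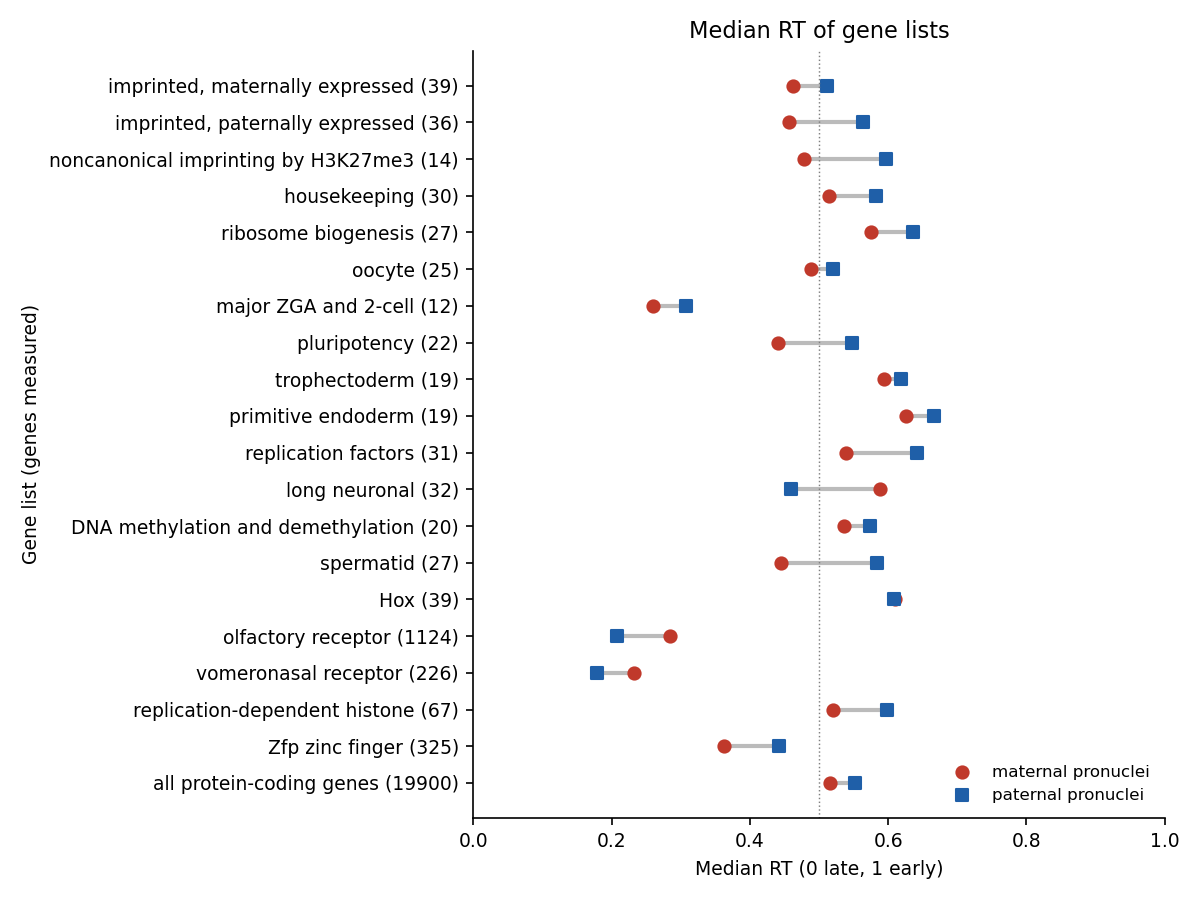
Median RT (x, 0 late to 1 early) of each gene list in maternal (red circles) and paternal (blue squares) pronuclei, with the number of genes measured beside the name. Vomeronasal receptor genes are latest in both, and olfactory receptor genes are late in both. Hox genes have close medians of 0.610 and 0.608, and long neuronal genes have the maternal median (0.589) above the paternal (0.459).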

How the data were processed

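The authors deposited binary replication states (1 replicated, 0 not replicated, or missing), which are neither counts nor a signal, for bins of 50 kb of GRCm38 (mm10). Per the labels and methods, the authors aligned reads with Bowtie2 2.3.5, filtered with SAMtools 1.9 and counted with bedtools 2.29.0, scaled each bin by its mean over the same stage, smoothed, segmented and split the values into 2 states. Scaling within a stage removes differences that all its cells share. Whether both kinds of pronuclei were scaled together is not given. Their states were deposited separately, with 46485 called bins in most maternal and 46463 in most paternal pronuclei. Scaling each kind on its own would take out bin differences common to 1 parent, which the tests here could then not show. Read depth of the pronuclei was not used here, and the number of pronuclei sets the precision.

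Pronuclei were grouped by their labels. Windows, genes and chromosomes needed values in 80% of the pronuclei of each group (windows 10 called bins). Means were compared by 100000 permutations of the parental labels, with Benjamini-Hochberg adjustment at 0.05, and 95% intervals came from permuted group-centred values. The p-values treat pronuclei as independent, although some share a zygote. Genes were those of GENCODE M21, with GC content and repeats from GRCm38. Unmatched list entries included Nesp, Ube3a-ATS, Hprt, Utp14a, Dkc1, Bmp15, Dux, Esx1, Cited1, Pola1 and Akap4. Named are the 5 windows with the largest difference in each direction, 15 well-known imprinted genes, and the pair (each imprinted list) or single gene (other lists) with the largest RT difference in each direction; genes of windows were chosen by name. Some items that the rule names are not reported here. Members and lists were chosen with earlier results of these data known. Alternatives were score ranges, window sizes, a replicate block, limma 3.58.1, raw shares and, added after the data were seen, GC content, bins of 50 kb, genes as regions and leaving out maternal pronucleus 28. Python 3.11.15 and NumPy 2.4.6 were used. The window test was checked on the real pronuclei with shuffled labels and shifted windows, and RT over intervals of the score on simulated cells.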

Additional observations from a re-analysis of the deposited data

How the results depend on the processing

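No window passed under any of the 19 alternative settings of both window results (window sizes, called bins, score ranges, limma, interval RT, GC content, replicate block, without maternal pronucleus 28), where the smallest adjusted p was 0.0600 at scores of 20 to 80 and 1.41% to 6.17% of windows were below an unadjusted 0.05; 0 of 19 chromosomes passed under any setting. The 5 windows with the largest difference in each direction kept their direction in all 69 values, but the replicate block moved the chromosome 18 windows from 86000001 and from 32000001 to 10.9 and −57.1 points, and the line on GC content the chromosome 5 window to −19.6. No test crossed its threshold. Directions of differences that did not pass turned in 7 cases: the replication score at scores of 20 to 80 (−3.66 points), state switches over all deposited columns (−0.272), likeness to IVF zygotes over all deposited columns (−0.0113) and at scores of 20 to 80 (−0.000199), early minus late bins with classes by parthenotes (0.969 points), variability under the replicate block (−0.0597) and the correlation of scores in same-numbered pronuclei over all deposited columns (0.224 in place of −0.228). With a threshold of 0.1 RT, 5 and 13 of 39 maternally expressed imprinted genes were earlier in maternal and in paternal pronuclei. Of 36 paternally expressed ones the counts were 9 and 13, and of 14 noncanonically imprinted ones 1 and 7. At that threshold 4023 and 6367 of all 19900 protein-coding genes were counted. From raw shares at 0.2 the lists gave 0 and 2, 1 and 2, and 0 and 1, beside 1254 and 1644 of all 19900. Same-numbered pronuclei were not treated as pairs, since the labels do not say that the number is the zygote. Over 10 shared numbers, their deviations from the group means had r of −0.0602 to 0.147, over 0.1 in 1. Only 1 maternal pronucleus was most like its own number, and their mean likeness of 0.0908 was close to 0.0861 between other numbers (p = 0.360, one-sided permutation). Because single pronuclei resembled each other weakly in general, these 10 numbers cannot tell whether same-numbered pronuclei shared a zygote. The replicate block over these 10 changed no call; it gave a score difference of 6.88 points and 46 windows below an unadjusted 0.05, none after adjustment.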

Other observations

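Outside scores of 10 to 90 lay 4 maternal pronuclei (numbers 20, 25, 48 and 51, at 90.9% to 96.2%) and 2 paternal pronuclei (number 11 at 7.02% and number 24 at 91.1%). Maternal pronucleus 51, at 91.1%, had r of 0.355 with zygote RT, within the range of the 21 maternal pronuclei analysed, and paternal pronucleus 11, with 7.02% of bins replicated, had r of 0.204. In both, the share replicated was higher in bins that are early in zygotes, by 15.2 and 9.63 points.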
